A study of Homo sapiens with 26 samples.

Results

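NGFR, PI15, STC1, SNCG, APOD and FAM212A are 6 of the 26485 genes measured by mRNA-seq in esophageal squamous cell carcinoma (ESCC) cells. They were chosen by their symbols because their values differed strongly between siTP63 and siCont libraries of KYSE180 or TE6, 2 established human ESCC cell lines. The size of those differences is therefore how the genes were found, and it is given below as a description without a test. The rule did not use another ESCC line, KYSE150, the libraries of BRDT knockdown in KYSE180 or those of BRDT overexpression in KYSE150, which were tested. Earlier results of all these libraries were known when the genes were chosen, so the tests are not fully independent of the choice.

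TP63 encodes p63, a transcription factor of the p53 family that binds DNA and maintains the basal identity of squamous epithelium, mostly through its ΔNp63 isoforms. BRDT is a bromodomain protein of the BET family. It reads acetylated histones and is normally restricted to male germ cells. The 6 genes encode proteins of unlike kinds. NGFR is the p75 neurotrophin receptor, a death domain receptor at the cell surface that also marks basal cells of the esophageal epithelium. PI15 is a secreted protein of the CAP superfamily, STC1 is the secreted glycoprotein hormone stanniocalcin 1, and APOD is a secreted lipocalin that carries small hydrophobic molecules. SNCG is γ-synuclein, a small cytosolic protein abundant in neurons and found in many carcinomas. FAM212A, named INKA1 in current annotation, encodes an inhibitor of the kinase PAK4.

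The 26 libraries formed 11 groups in 5 experiments, and each experiment has its own control. KYSE180 cells received a control siRNA (siCont, n = 3) or an siRNA against BRDT (siBRDT, n = 3). In a separate experiment the same line received siCont (n = 2) or an siRNA against TP63 (siTP63, n = 2). TE6 cells received siCont, siBRDT or siTP63 (n = 2 each), so both knockdowns share 1 set of controls. KYSE150 cells received siCont or siTP63 (n = 2 each), and in another experiment carried BRDT overexpression (BRDT-OE, n = 3) or its control (n = 3). Knockdown cells were collected at 48 h. No group other than siTP63 had TP63 targeted, and no genotype beyond the knockdown or overexpression is labelled. Nothing states that replicates were separate cultures, so p-values measure the spread between these libraries, which may be technical.

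Libraries held 7582089 to 19372441 reads, and a gene with 0 reads is compatible with up to 3 reads, equal to 0.155 to 0.396 RPM (reads scaled by the library total) in these libraries. Such limits cover counting error only. Squamous markers (KRT5, KRT6A, KRT14, TP63, SOX2, DSG3, PKP1) summed to 393 to 8851 RPM, with 6 of 7 above 1 RPM in the KYSE150 groups and 7 of 7 elsewhere. SOX2 was the exception in KYSE150. The 3 endothelial markers summed to at most 12.1 RPM and the 6 melanocyte and Schwann cell markers to at most 3.35 RPM, with SOX10 and S100B at 0 in every library of 5 groups. Fibroblast markers reached 119 RPM, mostly COL1A1, and immune markers 111 RPM, of which only CD68 was above 1 RPM.

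The siRNA target sites are shown because they define the perturbation behind the choice of genes. A pair of siRNAs against TP63 are listed for the study, and which of them was used for the libraries is not given in the sources used here. They read as follows, 5′ to 3′ in the sense direction, in lower case throughout.
TP63 #5: caucaugucuggacuauuu
TP63 #8: cgacagucuuguacaauuu
The TP63 #5 site lies at chr3:189890812-189890830 (hg38, plus strand) in coding sequence and is present in 5 of 12 coding TP63 transcripts. TP63 #8 lies at chr3:189867849-189867867, also in coding sequence, and is present in 11 of 12. Neither sequence matched a transcript of the 6 genes.

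Promoters are shown for SNCG and FAM212A, the pair with lower values under siTP63 in KYSE180. Windows from RefSeq (GRCh38.p14) are printed for these 2 of the 6 genes only, with 2 start sites for SNCG. Each line below gives the 250 bases before a start on the plus strand. Capitals mark CATG, which is one form of the core of the p53-family half-site and reads alike on both strands.
SNCG, chr10:86955509-86955758: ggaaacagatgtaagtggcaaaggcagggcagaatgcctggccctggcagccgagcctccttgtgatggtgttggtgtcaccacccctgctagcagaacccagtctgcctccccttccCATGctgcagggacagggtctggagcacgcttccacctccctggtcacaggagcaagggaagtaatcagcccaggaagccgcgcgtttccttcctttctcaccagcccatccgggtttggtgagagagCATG
SNCG, chr10:86958349-86958598: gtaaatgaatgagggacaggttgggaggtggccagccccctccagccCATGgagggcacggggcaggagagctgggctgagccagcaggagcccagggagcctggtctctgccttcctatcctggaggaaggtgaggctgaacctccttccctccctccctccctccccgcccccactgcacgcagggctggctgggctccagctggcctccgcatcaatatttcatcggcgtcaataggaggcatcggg
FAM212A (INKA1), chr3:49803011-49803260: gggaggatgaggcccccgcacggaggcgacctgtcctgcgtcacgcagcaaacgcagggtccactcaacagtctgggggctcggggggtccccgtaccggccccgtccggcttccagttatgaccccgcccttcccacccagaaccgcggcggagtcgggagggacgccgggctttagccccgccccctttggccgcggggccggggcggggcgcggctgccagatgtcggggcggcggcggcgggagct
The upstream SNCG window holds 2 CATG, the downstream one 1 and the FAM212A window 0. Over 35116 RefSeq promoter windows of the same length, 47.6% hold CATG. The full p53-family half-site, searched on both strands, is in 0 of these 3 windows and in 5.57% of all windows. These are matches of letters and no more.

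TP63 itself was examined first to establish how far the targeted gene had moved (chr3:189631389-189897276). Its normalised value, reads divided by a size factor for each library, was 2573 and 3035 with siCont and 794 and 925 with siTP63 in KYSE180. TE6 siCont libraries had 2596 and 2785 and siTP63 libraries 133 and 112, which is 4.57% of control against 30.6% in KYSE180. The KYSE180 share depends on the size factors. In RPM its means were 166 with siCont and 73.2 with siTP63, and the ratio of pooled read rates was 0.43. KYSE150 went from 695 and 729 to 170 and 114, or 20.0% of control. The siBRDT libraries also held less TP63, at 66.9% of control in KYSE180 (log2 fold change -0.58 ± 0.07 SE, adjusted p = 8.79e-06, n = 3 each) and 45.1% in TE6. BRDT was at 14.9% of control under siBRDT in KYSE180 and at 21.0% in TE6. BRDT reads numbered 6 to 17 in the controls of BRDT-OE and 12475 to 18833 with BRDT-OE, and the KYSE150 siCont libraries held 41 and 7.

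NGFR (chr17:49495293-49515008, plus strand) had low values under siTP63 in TE6 but not in KYSE180. It overlaps NGFR-AS1 on the other strand, which has no value here. TE6 siCont libraries had normalised values of 738 and 735, and siTP63 libraries 17.9 and 25.2. Both siTP63 libraries thus lay far below the controls, at 2.93% of their mean, a log2 fold change of -5.05 ± 0.19 (SE), the 5th lowest of 13333 genes. In KYSE180 the values were 51.9 and 64.7 with siCont and 53.7 and 59.6 with siTP63. These groups overlapped, with a log2 fold change of -0.03 ± 0.25 (SE). KYSE150 siCont libraries had 71.3 and 41.2 and siTP63 libraries 30.7 and 45.3, again overlapping, and the difference did not pass the test (log2 fold change -0.53 ± 0.41 SE, adjusted p = 0.545 by limma).

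NGFR was lower after BRDT depletion and after BRDT overexpression. KYSE180 siCont libraries had 145, 150 and 136 and siBRDT libraries 89.4, 90.3 and 96.6. Every siBRDT library was below every control, and NGFR fell by 0.64 on the log2 scale (SE 0.12, limma adjusted p = 2.55e-04). That change ranked 1592nd lowest of 13589 genes. TE6 siBRDT libraries had 123 and 128, between the TE6 siCont and siTP63 libraries, a log2 fold change of -2.54 ± 0.19 (SE). Since the TE6 controls are those of the choice, that value is a description. BRDT-OE in KYSE150 went the same way as siBRDT, with 321, 214 and 238 in control libraries and 31.8, 22.0 and 30.9 in BRDT-OE libraries. NGFR fell there by 3.14 on the log2 scale (SE 0.20, adjusted p = 3.14e-06), the 19th lowest of 12765 genes.

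**Figure D1:**
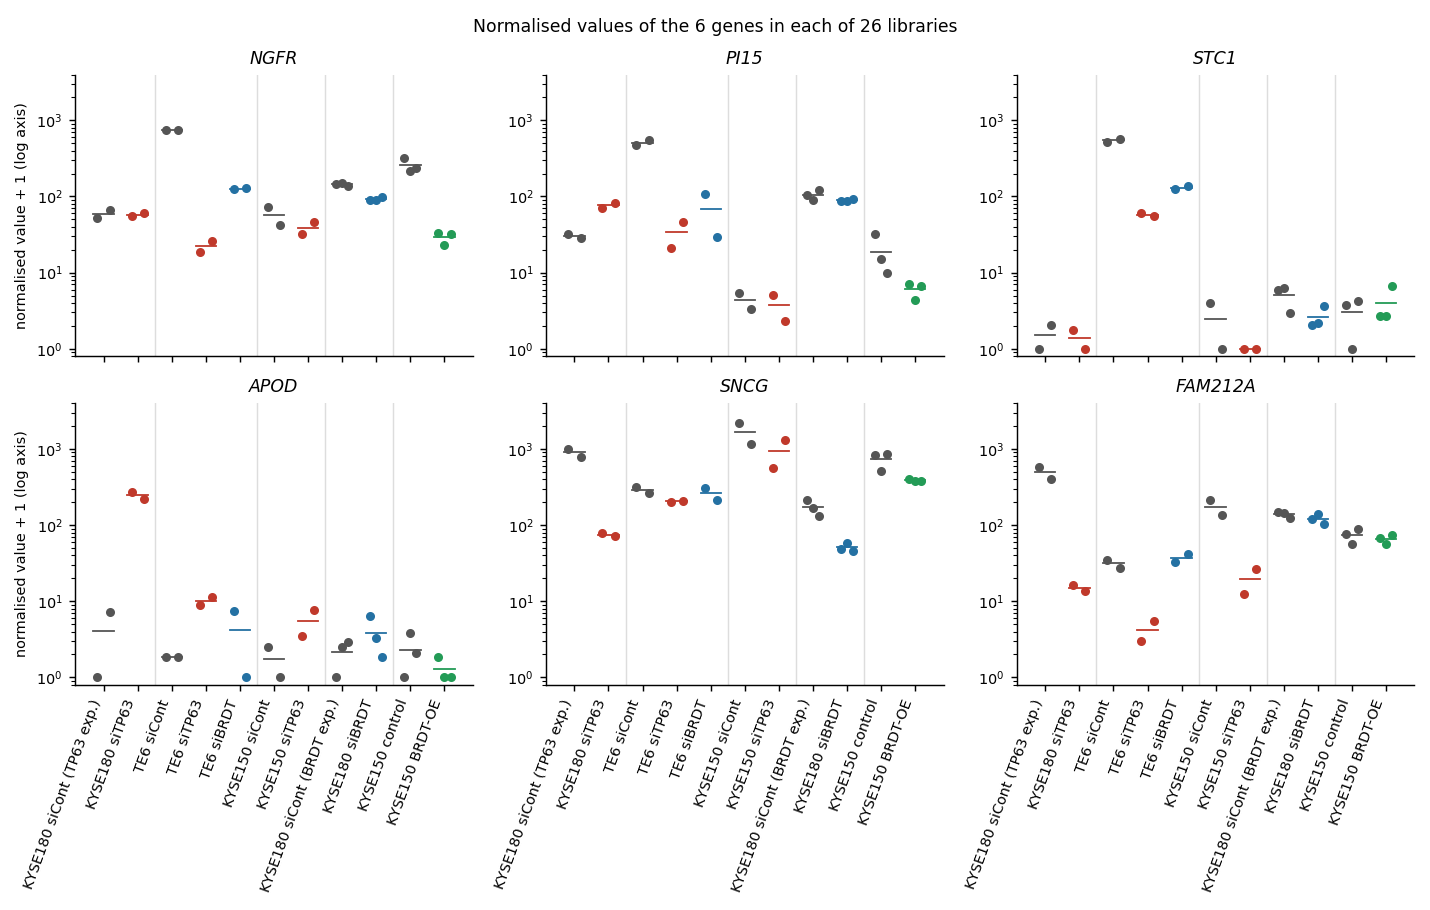
Normalised value + 1 of each gene (log axis) in every library, 1 point per library and a bar at the group mean, with controls in grey, siTP63 in red, siBRDT in blue and BRDT-OE in green. Grey lines separate the 5 experiments, which were normalised separately. NGFR, PI15 and STC1 are high in TE6 siCont, APOD is high in KYSE180 siTP63 alone, and FAM212A is low in every siTP63 group.

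PI15 (chromosome 8, 74824534 to 74855029, plus strand) went in opposite directions in the 2 lines of the choice. In TE6 its values were 468 and 550 with siCont and 19.9 and 45.9 with siTP63, a log2 fold change of -4.02 ± 0.47 (SE). KYSE180 libraries had 31.5 and 27.7 with siCont and 69.8 and 81.0 with siTP63, so both siTP63 libraries were above the controls (log2 fold change 1.32 ± 0.27 SE). KYSE150 libraries of the siTP63 experiment held 1 to 5 PI15 reads, below the filter, and a change was not detectable at this depth.

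With siBRDT, PI15 did not pass the test in KYSE180. The libraries had 103, 90 and 121 with siCont and 87.3, 85.7 and 91.4 with siBRDT (log2 fold change -0.23 ± 0.14 SE, adjusted p = 0.155), and the groups overlapped. TE6 siBRDT libraries had 106 and 28.7, both under the controls but several fold apart (log2 fold change -3.17 ± 0.47 SE), the 2nd lowest of 13333 genes. The TE6 controls are those of the choice, so this value and its rank are a description. The log2 fold change was -4.10 without siBRDT replicate 1 and -2.25 without siBRDT replicate 2. Of the KYSE150 libraries without BRDT-OE, the 3 controls held 34, 15 and 8 PI15 reads and BRDT-OE libraries 7, 4 and 4. The log2 fold change was -1.51 ± 0.46 (SE). PI15 passed the filter only through its controls (mean 17.9 against 5.01), chiefly control replicate 1, so a difference was built into its being tested and its adjusted p of 0.0198 supports nothing. It was 0.0234 with no filter and 0.0704 without BRDT-OE replicate 2. Without control replicate 1, the mean was below the filter and no value could be fitted.

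STC1 (chromosome 8, 23841929 to 23854806, minus strand) was measurable in TE6 only. Values were 513 and 573 with siCont, 59.1 and 54.7 with siTP63 and 124 and 135 with siBRDT. The 3 groups did not overlap, and siTP63 libraries were the lowest. The log2 fold changes were -3.23 ± 0.16 (SE) under siTP63 and -2.06 ± 0.16 (SE) under siBRDT. Both rest on the TE6 controls of the choice and are a description. Libraries of KYSE180 and KYSE150 held 0 to 7 STC1 reads, too few to compare. Of these 20 libraries, 6 had 0 reads.

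APOD (chr3:195568705-195584033, minus strand) had the highest log2 fold change of 13924 genes under siTP63 in KYSE180. It passed the filter only through the siTP63 libraries (mean 246 against 3.08). A rise was thus built into its being ranked, and the rank is a description that supports nothing. The siCont libraries held 0 and 6 reads and the siTP63 libraries 358 and 274, with normalised values of 275 and 218. The RPM values were 94.7 times higher (95% exact interval 43.3 to 259, counting error only). The log2 fold change was 6.52 ± 0.52 (SE) on the log2(value + 1) scale. With controls near 0 its size was uncertain, at 8.27 with a pseudocount of 0.1, 5.10 without siCont replicate 1 and 7.94 without siCont replicate 2. APOD was below the filter everywhere else. TE6 held 1 and 1 reads with siCont against 12 and 7 with siTP63, a ratio of 9.89 (95% exact interval 2.39 to 87.5). KYSE150 held 1 and 0 reads against 3 and 5, a ratio of 6.78 (0.909 to 301). Each siTP63 library was thus above the siCont libraries of its own experiment, in TE6 and KYSE150 with very few reads. siBRDT gave 5, 2 and 1 reads against 0, 2 and 2 in KYSE180, and 6 and 0 against 1 and 1 in TE6, with overlapping groups in both.

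Interferon-response genes moved with APOD in KYSE180. The 10 genes summed here (ISG15, IFI6, IFIT1, IFIT2, IFIT3, MX1, OAS1, OAS2, OAS3 and XAF1) reached 266 to 301 RPM with siCont and 1824 to 1974 RPM with siTP63. TE6 showed such a difference under both siRNAs, with 193 to 220 RPM in siCont, 1665 to 2087 RPM in siBRDT and 1148 to 1173 RPM in siTP63. KYSE180 siBRDT libraries summed to 893 to 961 RPM against 973 to 1025 RPM in their controls. KYSE150 siTP63 libraries summed to 180 to 284 RPM against 132 to 144 RPM in siCont. With BRDT-OE the sum was lower, at 184 to 201 RPM against 364 to 471 RPM in control, beside the lower NGFR, PI15 and SNCG values there. The part of this signal in the values of the 6 genes was not tested.

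SNCG (chr10:86958599-86963258, plus strand) was lowest relative to control in KYSE180 under both siRNAs. In the TP63 experiment it had 1013 and 788 with siCont and 76.7 and 70.7 with siTP63, 8.18% of control (log2 fold change -3.58 ± 0.17 SE). TE6 libraries had 320 and 260 with siCont and 203 and 206 with siTP63, 70.5% of control, without overlap (log2 fold change -0.50 ± 0.18 SE). KYSE150 libraries had 2208 and 1160 with siCont and 563 and 1315 with siTP63. There the replicates of each group differed about as much as the groups, and the difference did not pass the test (log2 fold change -0.90 ± 0.49 SE, adjusted p = 0.394). With siCont replicate 1 set beside siTP63 replicate 2 and the reverse, the limma adjusted p was 1.76e-08 at the same log2 fold change. That pairing was picked after the data were seen, so it is no independent support. The value shifted with the library left out. It was -1.51 without siTP63 replicate 2 (adjusted p = 0.038), -1.36 without siCont replicate 2 (0.0592), -0.43 without siCont replicate 1 (0.834) and -0.28 without siTP63 replicate 1 (0.75).

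Under siBRDT in KYSE180, SNCG values were 212, 169 and 130 with siCont and 47.9, 57.9 and 45.3 with siBRDT. All siBRDT libraries were below all controls, and SNCG fell by 1.72 on the log2 scale (SE 0.17, adjusted p = 7.76e-07), the 98th lowest of 13589 genes. This fall was known when the genes were chosen and is no independent support. TE6 siBRDT libraries had 307 and 215, overlapping their controls (log2 fold change -0.16 ± 0.18 SE, and 0.092 without siBRDT replicate 2). BRDT-OE libraries in KYSE150 had 398, 379 and 381 against 843, 519 and 867. SNCG fell there by 0.91 (SE 0.17, limma adjusted p = 0.00124), which ranked 1035th lowest of 12765 genes. MMRN2, an endothelial extracellular matrix gene, overlaps SNCG on the other strand. The library kit does not mark strand, so reads in the shared part cannot be told apart. MMRN2 had 17 and 20 reads with siCont and 73 and 43 with siTP63 in KYSE180, the opposite direction to SNCG. It had 19, 29 and 25 reads with siCont and 10, 6 and 15 with siBRDT, the same direction.

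FAM212A (chr3:49803261-49805030, plus strand) was the member with low values under siTP63 in all 3 lines. KYSE180 libraries had 584 and 407 with siCont and 15.3 and 12.7 with siTP63, 2.83% of control and the 2nd lowest log2 fold change of 13924 genes (-5.03 ± 0.23 SE). TE6 libraries had 34.3 and 26.7 with siCont and 1.99 and 4.44 with siTP63 (log2 fold change -2.96 ± 0.42 SE), on 70 and 6 reads. In KYSE150, which was not used in the choice, siCont libraries had 212 and 133 and siTP63 libraries 11.6 and 25.3. The groups did not overlap, at 10.7% of control, and the log2 fold change of -3.21 ± 0.46 (SE) was the 3rd lowest of 12335 genes. Its unadjusted p was 5.34e-04 and its adjusted p 0.111, so it was not called. It was also not called by edgeR (adjusted p = 0.10), a fit that was not required to recover planted changes in simulated data. FAM212A was called by DESeq2 (1.09e-07), with the replicate block (5.11e-06) and with no filter (0.0468). Leaving out any 1 of the 4 libraries gave a call, with log2 fold changes of -3.74 to -2.69 and adjusted p-values of 1.15e-06 to 0.0033, from fits in which a lone library is assumed to vary like the other group.

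Neither BRDT perturbation passed the test for FAM212A. KYSE180 had 149, 144 and 123 with siCont and 119, 141 and 102 with siBRDT (log2 fold change -0.20 ± 0.14 SE, adjusted p = 0.212). TE6 siBRDT libraries had 31.3 and 40.6, around their controls (log2 fold change 0.23 ± 0.42 SE). BRDT-OE libraries had 66.2, 55.0 and 73.1 against 75.9, 54.7 and 87.7 (log2 fold change -0.15 ± 0.20 SE, adjusted p = 0.557). Groups overlapped in all 3 comparisons.

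**Figure D2:**
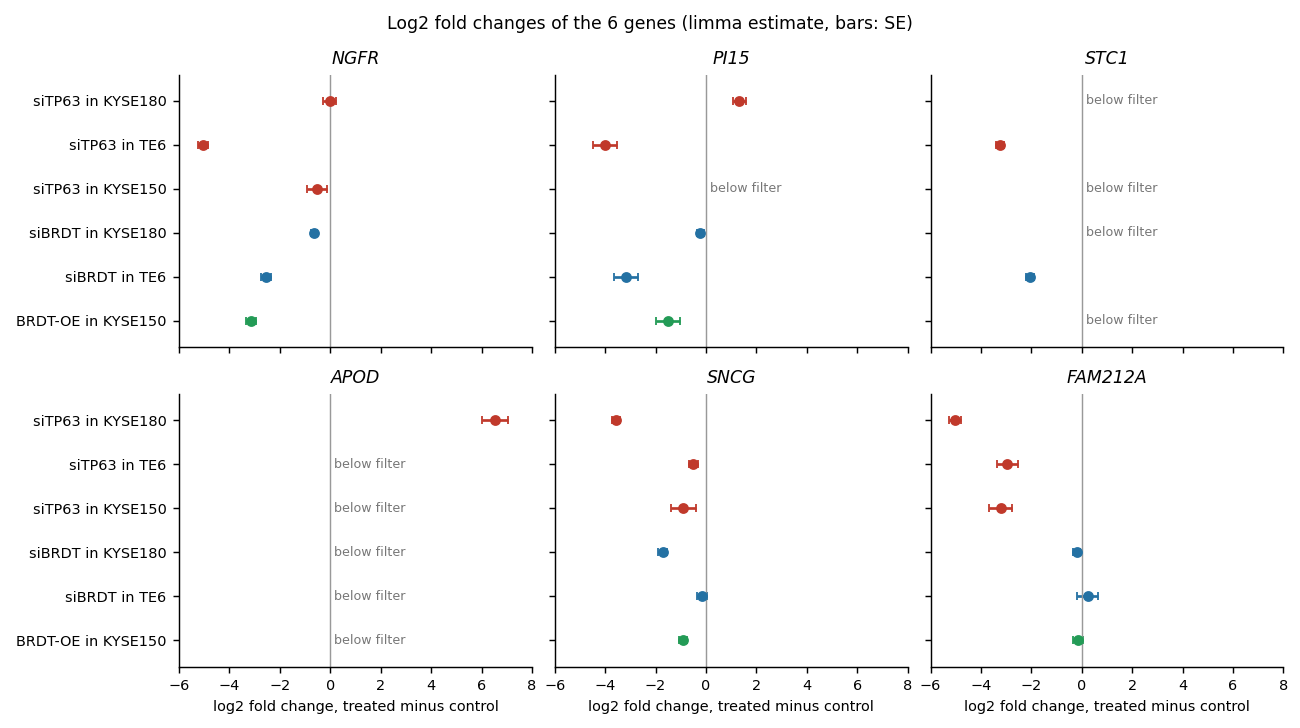
Log2 fold change (treated minus control, limma estimate on log2(normalised value + 1), bars 1 SE) of each gene in the 6 comparisons. FAM212A lies at -5.03, -2.96 and -3.21 under siTP63 in the 3 lines and between -0.20 and 0.23 in the BRDT comparisons, and NGFR lies at -0.03 and -5.05 under siTP63 in KYSE180 and TE6.

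In order to see which changes held in all 3 lines, the siTP63 estimates were placed side by side. Among 11506 genes measured in all 3 lines, 6 were lower by at least 2 on the log2 scale in each, namely CORO1A, DKK3, FAM212A, KRT14, LSM6 and MMP1, and 5 were higher by as much. FAM212A ranked 1st when genes were ordered by the smallest of their 3 falls. KYSE180 and TE6 were used to choose it, so this rank is a description and supports nothing. Its smallest fall was in TE6. There it passed the filter only through siCont and siBRDT (means 30.5 and 36.0, against 3.21 with siTP63). KRT14 is a basal keratin and MMP1 an interstitial collagenase. SNCG was lower in each line but unequally, at -3.58, -0.50 and -0.90. NGFR was lower by more than 1 in TE6 alone, and PI15, STC1 and APOD were below the filter in KYSE150. These differences between lines rest on the contrasts used for the choice and were not tested. TP63 was left at different levels in the 3 lines, as given above, and the part of this was not tested either.

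**Figure D3:**
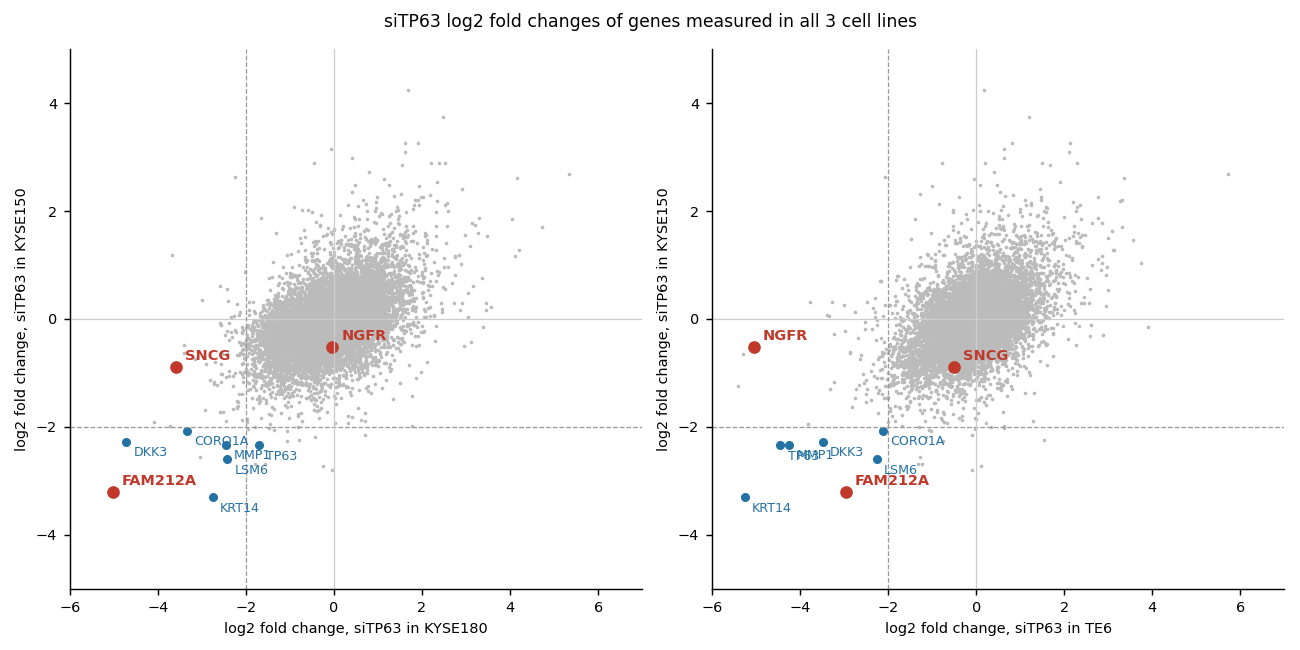
Log2 fold change under siTP63 in KYSE150 (vertical axis) against KYSE180 (left) and TE6 (right), 1 grey point per gene measured in all 3 lines, with NGFR, SNCG and FAM212A in red and TP63 and the genes past -2 in every line (dashed) in blue. FAM212A lies beyond -2 on both axes in both panels, whereas NGFR is near 0 in KYSE180 and at -5.05 in TE6.

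Of the 6 genes, 3 passed the filter on low values in the KYSE150 siTP63 fit and 0 were called, where 0.0% of 12335 genes were called. TP63, the targeted gene, was not called in that fit either (log2 fold change -2.34 ± 0.26 SE, adjusted p = 0.0818 by limma). A missing call there therefore does not show that a gene was unchanged. By limma 2194 genes had an unadjusted p under 0.05 and the lowest adjusted p was 0.08, edgeR called 0 genes and DESeq2 called 462. Under siBRDT in KYSE180, 4 genes passed the filter and 2 were called down (NGFR and SNCG), where 30.3% of 13589 genes were called and 15.8% were called down. Under BRDT-OE, 4 passed and NGFR and SNCG were called down, besides PI15, which passed through its controls only, where 26.5% of 12765 genes were called and 16.0% were called down. The split of all calls moved with the scaling. Calls down were 2143 of 4115 under siBRDT and 1700 of 4214 with libraries set to equal totals, and under BRDT-OE 2043 of 3386, 2491 of 3410 with equal upper quartiles and 2675 of 3467 with equal totals. Under those scalings 2 members met the call with siBRDT and 3, PI15 included, with BRDT-OE.

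The scaling mattered most for siTP63 in KYSE180, where the median log2 fold change of all genes was 0.001 with the size factors and 0.521 with equal totals. With equal totals NGFR was at 0.48, PI15 at 1.83, APOD at 6.88, SNCG at -3.06 and FAM212A at -4.52. NGFR thus stayed near the median of all genes under either scaling. The other 5 comparisons moved by at most 0.123 in either direction.

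Levels of each gene across the groups were set side by side in RPM, which is not tied to the size factors of 1 table. NGFR was highest in TE6 siCont (65.3 ± 0.125 RPM, SD, n = 2), followed by the control of the KYSE150 overexpression experiment (17.3 ± 3.83, n = 3) and siCont of the KYSE180 BRDT experiment (12.9 ± 0.536, n = 3). The lowest groups, TE6 siTP63 (1.90 ± 0.484 RPM) and KYSE150 BRDT-OE (1.74 ± 0.344 RPM), overlapped. PI15 was also highest in TE6 siCont (45.1 ± 5.34 RPM), and its 3 lowest groups were all KYSE150 and not separable, at 0.195 to 0.308 RPM. STC1 stood at 48.2 ± 3.95 RPM in TE6 siCont, 10.7 ± 0.393 in TE6 siBRDT and 5.01 ± 0.181 in TE6 siTP63, and its means were at most 0.364 RPM in the other 8 groups.

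SNCG was highest in KYSE150 siCont (103 ± 35.5 RPM, SD, n = 2), which overlapped the next groups down, KYSE150 siTP63 (61.0 ± 27.0), KYSE180 siCont of the TP63 experiment (53.1 ± 7.73) and the KYSE150 control (49.7 ± 12.6) each overlapping its neighbour. It was lowest in KYSE180 siTP63 (6.26 ± 0.134 RPM) and KYSE180 siBRDT (4.81 ± 0.604 RPM), which did not overlap. APOD stood at 20.9 ± 2.66 RPM in KYSE180 siTP63, and the next group, TE6 siTP63, at 0.808 ± 0.163 RPM. FAM212A was highest in the 2 KYSE180 siCont groups (29.1 ± 6.49 and 12.5 ± 1.18 RPM). Its 3 siTP63 groups were the 3 lowest of all 11, at 1.20 ± 0.477 in KYSE150, 1.19 ± 0.115 in KYSE180 and 0.284 ± 0.157 RPM in TE6.

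Controls of the same line differed between experiments. KYSE180 siCont libraries had 3.0 and 3.9 RPM NGFR in the TP63 experiment and 12.4 to 13.5 RPM in the BRDT experiment, and PI15 stood at 1.67 and 1.82 against 8.05 to 11 RPM. SNCG and FAM212A differed the other way, with 47.6 and 58.5 against 11.9 to 19 RPM for SNCG and 24.5 and 33.7 against 11.1 to 13.4 RPM for FAM212A. TP63 was at 149 and 183 RPM in the first and 844 to 942 RPM in the second set of controls. In KYSE150, NGFR stood at 2.79 and 4.15 RPM in siCont and 14.5 to 21.6 RPM in the control of BRDT-OE. No range overlapped in any of these pairs, and several are as far apart as the knockdown groups. The experiment and any other difference between these controls cannot be told apart, and comparisons above stay within an experiment. In bulk RNA, fewer cells with a transcript and less of it per cell cannot be told apart.

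Genes that act with or resemble the 6 members were then examined (67 in all). A named gene said to fall or rise in these lists was called down or up. Under siBRDT in KYSE180, 38 were tested, of which 8 fell and 2 rose, with a median log2 fold change of -0.155 against -0.005 over all genes. Under BRDT-OE 30 were tested, of which 6 fell and 6 rose (median -0.13 against 0.017). Under siTP63 in KYSE150, 0 of 30 were called and 6 had an unadjusted p under 0.05 (median -0.24 against -0.008). These counts stand beside the 30.3%, 26.5% and 0.0% of all genes called, with 15.8% called down under siBRDT and 16.0% under BRDT-OE. They include PAPPA and RBP4 (siBRDT) and CRISPLD1 (BRDT-OE), which passed the filter only through their controls, so they support nothing about the lists.

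Among 21 genes of neurotrophin signalling, which NGFR takes part in, 3 of 13 tested were called down and 0 up under siBRDT. NTRK2, the receptor for BDNF, had 1357 ± 71.4 in siCont and 795 ± 35.7 in siBRDT (mean ± SD of 3 libraries, as in the values that follow, log2 fold change -0.77, adjusted p = 2.47e-07). NGFRAP1 (BEX3), which binds the death domain of NGFR, went from 4262 ± 232 to 2355 ± 188 (-0.86, adjusted p = 1.05e-07). SORT1, the co-receptor sortilin, fell as well. Under BRDT-OE 2 of 12 were called down and 2 up. NTF4, a neurotrophin ligand, fell from 198 ± 29.2 to 42.7 ± 0.803 (-2.17, adjusted p = 4.64e-06), NGFRAP1 fell too (-0.55, adjusted p = 0.00168), and BDNF and IRAK1 rose. Of the 9 other receptors of the TNF family listed, EDAR fell under siBRDT, and TNFRSF10A rose under BRDT-OE. TNFRSF21, a death domain receptor of neurons, rose there from 741 ± 53.5 to 1242 ± 62.3 (0.74, adjusted p = 5e-05).

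The 11 genes of the CAP superfamily other than PI15 were mostly at low levels, with 4 tested under siBRDT and 3 under BRDT-OE. CRISPLD1, a secreted protein of the same group as PI15, fell under siBRDT from 393 ± 6.22 to 128 ± 4.80 (log2 fold change -1.62, adjusted p = 2.33e-09). Under BRDT-OE its values were 17.1 ± 3.21 in control and 3.88 ± 2.14 in BRDT-OE libraries, and it passed the filter through the controls only. Under BRDT-OE CRISPLD2 fell (-1.25, adjusted p = 4.63e-04), and GLIPR1 rose from 443 ± 4.01 to 1569 ± 99.7 (1.82, adjusted p = 3.81e-07).

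Stanniocalcins inhibit the pappalysins, proteases that cleave IGF-binding proteins. Of the 5 genes listed for this axis, IGFBP5, a pappalysin substrate, fell under siBRDT in KYSE180 (10114 ± 904 to 4230 ± 152, log2 fold change -1.25, adjusted p = 1.86e-09). The protease gene PAPPA had 23.3 ± 2.15 with siCont and 5.99 ± 1.22 with siBRDT, and it passed the filter through the controls only. There STC1 itself had 2 to 7 reads with siCont. STC2 fell under BRDT-OE from 1010 ± 48.8 to 536 ± 32.1 (-0.91, adjusted p = 1.57e-05).

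Of 12 lipocalin-related genes listed for APOD, 3 were tested under siBRDT and 3 under BRDT-OE, with 1 call in each, and 4 under siTP63 in KYSE150, with 0 calls. RBP4, which carries retinol, had 27.0 ± 2.63 with siCont and 9.60 ± 3.31 with siBRDT, and it passed the filter through the controls only. LCN2, an antimicrobial lipocalin that binds siderophores, fell under BRDT-OE from 106 ± 8.12 to 21.1 ± 6.61 (-2.32, adjusted p = 2.73e-05). SNCAIP, which encodes synphilin, rose under siBRDT. Of the PAK kinases, PAK4, the kinase bound by the FAM212A product, rose under siBRDT and PAK6 under BRDT-OE.

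**Figure D4:**
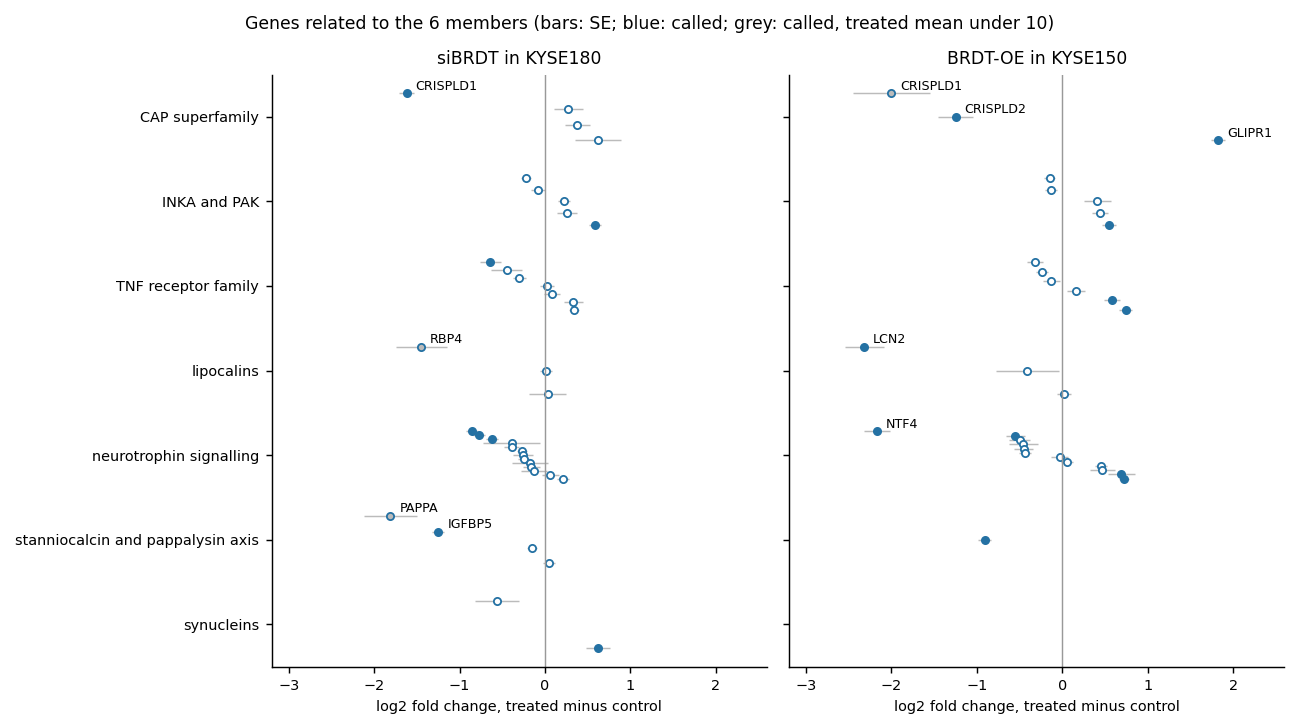
Log2 fold change (treated minus control, bars 1 SE) of the tested genes related to the 6 members, by list, under siBRDT in KYSE180 (left) and BRDT-OE in KYSE150 (right), with called genes in blue, or in grey where the treated mean was under 10 (PAPPA and RBP4 on the left, CRISPLD1 on the right). CRISPLD1 lies at -1.62 on the left, and calls lie on both sides of 0 under BRDT-OE.

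The genes with the most similar fold changes were found by the root mean square (RMS) difference over the 6 comparisons, among about 11336 genes with a mean value of at least 10 in all 5 tables. For FAM212A they were S100A2, a calcium-binding protein of basal squamous cells (0.97 log2 units), CORO1A (0.98) and DKK3 (1.14). For SNCG they were PCOLCE2 (0.68), NRG1 (0.72) and PGF (0.75). For NGFR they were PLCB1 (1.47), PLAT (1.55) and IL1RAP (1.56), none of them close. PI15 lay nearer to NGFR, at 1.01, but was not among the genes compared, as its mean was 3.07 in the KYSE150 siTP63 experiment. PI15, STC1 and APOD had values below the filter in 1 or more comparisons, where their own fold changes rest on few reads. Their nearest genes were NGFR (1.01), PPTC7 (1.06) and HIF1A (1.10) for PI15, KRT5 (0.42), SNORA40 (0.48) and LRP12 (0.53) for STC1, and BNIPL (1.02), KRT80 (1.43) and OAS1 (1.44) for APOD. Comparisons within TE6 share their controls, and likeness in these 6 values is a description.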

How the data were processed

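The deposited values are a signal of normalised reads. For each of 5 tables the authors had divided the reads of a gene by the size factor of the library. The submitters' processing notes name hg38, STAR 2.6.0, HTSeq 0.11.2 and DESeq2 1.24.0. The annotation and counting options, including strand, are not given in the sources used here. All values were whole multiples of 1 read (100% of values, tolerance 0.001), which gave reads per library.

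Log2(value + 1), a scale that understates changes of low genes, was fitted with limma 3.58.1 (R 4.3.3, trended eBayes). Genes entered a fit if their mean over its libraries reached 10. TE6 groups were fitted together. A call needed a Benjamini-Hochberg adjusted p under 0.05 over all genes tested and a log2 change of 0.5 or more either way. Members, lists and tests were chosen with earlier results of these data known. Named genes were the 6 members, TP63, BRDT, related genes called at least once, with values for the 12 with the largest fold change, and the 3 nearest genes per member. PAK4, PAK6 and the other called relatives are named without values under this rule. Of the listed genes, 2 are not reported here, and counts and sums leave them out. Gene positions are from GENCODE release 44 on hg38. Alternatives were a pseudocount of 0.1, no filter, equal upper quartiles, a block for replicate numbers, count models of the recovered reads (edgeR 4.0.16, DESeq2 1.42.0), dropping the fold-change limit, and leaving out each library. Equal library totals and a crossed pairing were added after the data were seen. Fits were tested on simulated data. There limma and DESeq2 had to recover most of the larger planted changes, and edgeR did not have to. A missing call by edgeR therefore does not show that a gene was unchanged. Figures were drawn with matplotlib 3.10.9.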

Additional observations from a re-analysis of the deposited data

Results flagged for a closer look

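PI15 was above the controls in both siTP63 libraries of KYSE180 and below them in both siTP63 libraries of TE6, and the log2 fold changes of the 2 lines differed by 5.34. Since these contrasts were used to choose the gene, the difference was not tested.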

How the results depend on the processing

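In all, 26 fold changes of the 6 genes were recomputed under the alternatives, which gave 304 values. Of these values, 276 kept their direction and side of the threshold or moved by less than the spread between replicates. A further 17 moved further, 10 gained a call, 1 lost it and 0 called values changed sign. The gains were all under siTP63 in KYSE150. There the members called were 0, but 1 when low values were kept, 1 with the replicate block, 1 with DESeq2 and 1 to 2 when 1 library was left out. Genes called in that comparison were 0 of 12335, but 45 with no filter, 137 with the replicate block, 462 with DESeq2 and 242 to 307 when 1 library was left out. The cause was not tested. Outside siTP63 in KYSE150, replicate numbers did not pair the libraries (correlations of deviations -0.084 to 0.178), and the block changed no member call. Under siTP63 in KYSE150 the correlation was -0.70, so control and siTP63 libraries of the same number tended to deviate in opposite directions. Crossing the numbers in KYSE150, added after the data were seen, gave 2 members (SNCG and FAM212A) and 3400 genes called. This pairing was picked from the same data, so its calls are no independent support. FAM212A had adjusted p-values of 2.23e-12 to 0.113 over its 12 alternatives there. The 1 lost call was PI15 under BRDT-OE without BRDT-OE replicate 2. Without a fold-change limit 7937 genes were called under siBRDT in KYSE180 and 6521 under BRDT-OE. Groups of 2 libraries and values under 10 limit what can be called for PI15, STC1 and APOD.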
